A study of Rattus norvegicus with 12 samples.

Results

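The question examined here was whether volume overload (VO) changed gene expression differently in the left ventricle (LV) and the right ventricle (RV) of the neonatal rat. For every gene the response of a ventricle was the log2 ratio of VO over sham, and the quantity tested was the LV response minus the RV response. RNA was sequenced from the free walls of both ventricles of SD (Sprague–Dawley) rats at postnatal day 7, after an arteriovenous fistula (AVF) between abdominal aorta and inferior vena cava (VO) or a sham operation at postnatal day 1. All 12 libraries of the series entered the comparison, 3 each of sham LV, VO LV, sham RV and VO RV. Of the 32545 genes listed, the 13910 with a mean of at least 0.5 FPKM (read fragments scaled by gene length and library depth) were tested in a single limma model. A gene was called when its Benjamini-Hochberg adjusted p was under 0.05 and its difference of responses exceeded 1.3-fold. Neither the sex of the animals, nor whether a library came from 1 animal or several, nor whether an LV and an RV library of the same number came from the same rat is stated in the labels, so the p values measure the spread between these libraries.

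A fistula returns arterial blood to the venous side and raises the volume that both ventricles pump. In the first postnatal week the RV is relieved of the high pulmonary resistance of fetal life while the LV takes on the systemic circulation, and cardiomyocytes are still maturing their contractile, electrical and metabolic equipment. A positive difference of responses means that VO moved a gene further upwards (or less far downwards) in the LV. A negative one means the reverse. A gene with the same response in both ventricles has a difference of 0, however large that response is.

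The libraries held from 14121713 to 16871371 reads assigned to genes, and 17128 to 17807 genes were above 0. The libraries were of heart muscle: the summed FPKM of 8 cardiomyocyte markers (among them Myh6, Actc1 and Tnnt2) ranged from 20081 to 30728. A pair of RV libraries, called high in atrial markers here by Sln and Bmp10, held transcripts that define atrial muscle. Sln, which encodes the atrial calcium-pump regulator sarcolipin, was 97.7 FPKM in sham RV 1 and 388 FPKM in VO RV 2 and at most 0.678 FPKM in the other 10, and Bmp10, another atrial gene, was 12.6 and 72.4 FPKM in this pair against at most 0.152 FPKM elsewhere. The summed FPKM of the Y-linked genes was 56.1 to 64.9 in sham LV 1, sham LV 2, sham RV 1, sham RV 2 and VO RV 3 and at most 0.373 in the other 7, so that every group but VO LV had libraries of the former kind. With a covariate for the Y-linked genes 176 genes were called, and without the pair of libraries high in atrial markers 2 genes were called, neither of them among those called with all libraries: Mcpt1, a mast cell protease gene (−2.30), and AABR07026359.1 (−4.66), both named after their values were seen. At an unadjusted p under 0.05 with the same fold, 3157 genes were then found.

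The ventricles differed in their response at 583 of 13910 genes (4.19%). The higher response lay in the LV for 481 genes (3.46% of the genes tested) and in the RV for 102 genes (0.733%). The absolute difference among the called genes had a median of 1.04 on the log2 scale and ranged from 0.40 to 4.75, whereas the median difference over all tested genes was −0.04. At an unadjusted p under 0.05 with the same fold, 3208 genes were found, 1825 on the LV side and 1383 on the RV side. The adjusted p of every called gene lay between 0.0246 and the threshold, and the count moved strongly when single libraries were left out. It was 0 without sham LV 1, sham LV 2, VO LV 2, VO LV 3 or sham RV 1, although 2384 to 3176 genes then still passed at the unadjusted p and fold by limma, and it was 1003 without VO RV 1. When any 1 library was left out, all 583 genes kept the sign of their difference and an unadjusted p under 0.05, but they had been chosen by this contrast on these libraries, so this is a description and no independent support.

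The called genes mostly had responses of opposite sign. The 481 genes had a median LV response of 0.69 and a median RV response of −0.41, and the 102 genes had medians of −0.50 and 0.34. Within a ventricle few responses passed an adjusted p: by limma 13 genes did in the LV, 10 of them among the 583, and 0 in the RV, where the lowest adjusted p was 0.258 and 683 genes passed at the unadjusted p and fold. Words such as higher or lower under VO in a ventricle therefore describe the libraries here. Sorted by the unadjusted p and fold within each ventricle, 224 of the 481 genes were higher under VO in the LV and lower in the RV, 219 were higher in the LV with no difference past these limits in the RV, 11 were lower in the RV alone and 27 passed in neither ventricle alone. Of the 102 genes, 29 were lower in the LV and higher in the RV, 43 were lower in the LV alone, 11 were higher in the RV alone and 19 passed in neither. None of the 583 passed in the same direction in both ventricles. At 353 of the called genes the VO and sham libraries did not overlap in either ventricle and lay in opposite order, compared with 658 of all 13910 tested genes (4.73%). The genes were selected by the difference itself, which favours opposite signs among them.

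**Figure D1:**
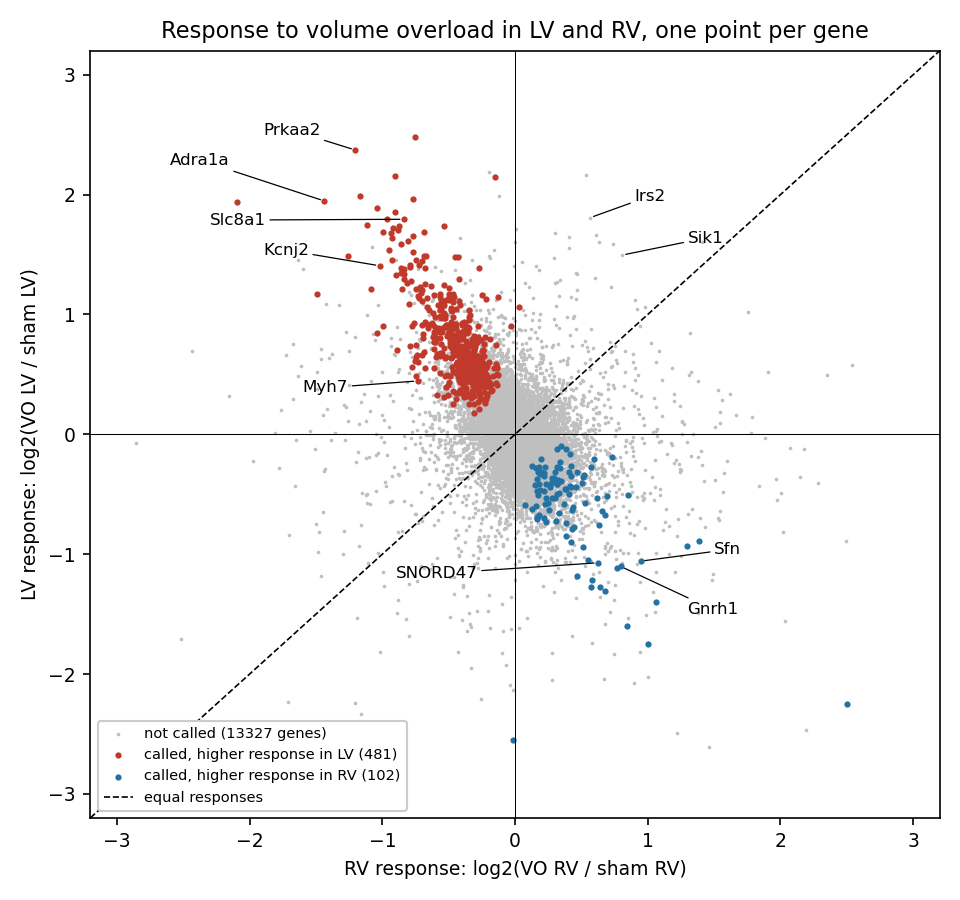
The RV response (x axis, log2 of VO RV over sham RV) is plotted against the LV response (y axis, log2 of VO LV over sham LV), with 1 point per tested gene and a dashed line where both are equal. The 481 red genes lie mostly in the upper left and the 102 blue genes mostly in the lower right, while Irs2 and Sik1 lie in the upper right and were not called; 6 genes fall outside the axes.

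Seen from the other side, the called genes exchanged their order between the ventricles. In the sham animals the LV minus RV difference of the 481 genes had a median of −0.68 on the log2 scale, and under VO it had a median of 0.44. All 3 sham LV libraries lay below all 3 sham RV libraries at 470 of these genes, and all VO LV libraries lay above all VO RV libraries at 311. Over all tested genes the same was found at 2314 (16.6%) and at 1175 (8.45%). Of the 102 genes, 90 lay without overlap higher in sham LV than in sham RV, and 69 without overlap lower in VO LV than in VO RV, against 2169 (15.6%) and 1070 (7.69%) of all tested genes. The sign of the mean difference between the ventricles turned at 479 of the 481 and at 100 of the 102 genes, and at 8757 (63.0%) of all tested genes. Choosing genes by the difference of responses favours a turned order. Among the exceptions, named after their values were seen, were Hand1, Dpep2 and a U6 gene, of which Hand1 had an LV minus RV difference of 1.04 in the sham animals and of 2.64 under VO.

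The pattern was not equally strong in every library. Relative to each gene's mean over the 12 libraries, the 481 genes had medians of −0.40, −0.56 and −0.25 in the sham LV libraries and 0.17, 0.23 and 0.46 in the VO LV libraries. In the sham RV libraries their medians were 0.40, 0.26 and 0.15, and in VO RV they were 0.03, −0.04 and −0.40. VO RV 3 thus lay as low as the sham LV libraries, and VO RV 1 and 2 lay near the gene means. Without VO RV 3 the number of called genes was 111, of which 102 had the higher response in the LV and all were among the 583.

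**Figure D2:**
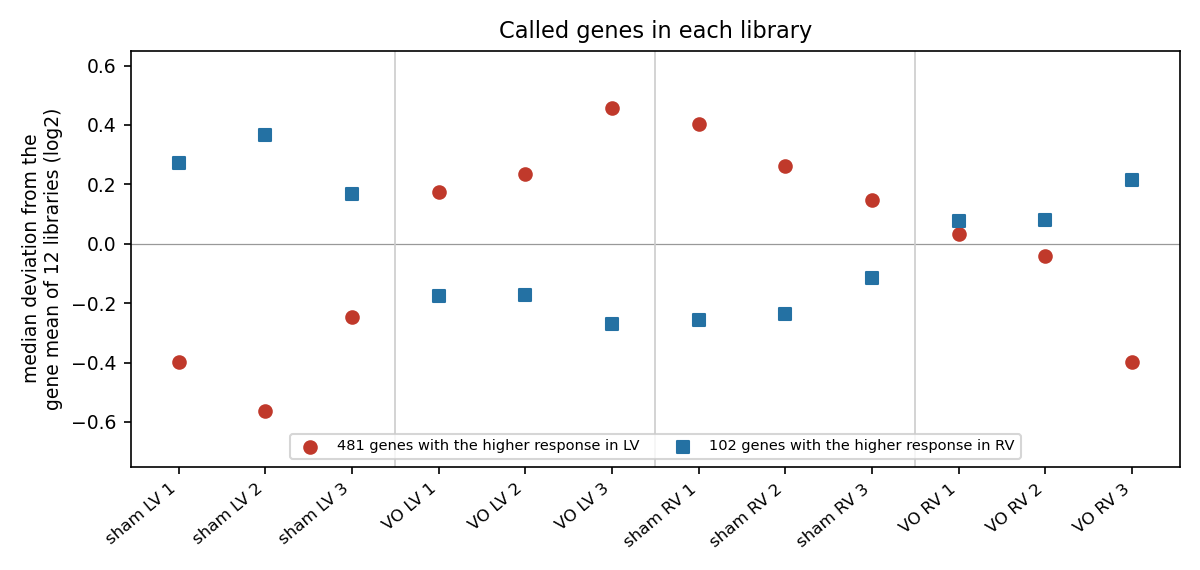
The median deviation of the called genes from their mean over 12 libraries (y axis, log2) is shown for each library, with circles for the 481 genes whose response was higher in the LV and squares for the 102 genes with the higher response in the RV. The circles are below 0 in all sham LV libraries and above 0 in all VO LV and sham RV libraries, and VO RV 3 lies far below VO RV 1 and 2.

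Among the called protein-coding genes of at least 1 FPKM whose symbols are not provisional, the largest difference of responses was that of Prkaa2, the catalytic alpha 2 subunit of the AMP-activated kinase (AMPK), which senses a shortage of energy. Prkaa2 (ENSRNOG00000007706, listed on chromosome 5 from 124574079 to 124642569) was 2.01, 1.67 and 3.86 FPKM in sham LV and 11.2, 12.2 and 21.8 FPKM in VO LV, whereas it was 23.0, 12.1 and 8.58 FPKM in sham RV and 7.55, 7.84 and 2.78 FPKM in VO RV. All VO libraries were above the sham libraries in the LV and below them in the RV. The LV response was 2.37 and the RV response was below 0, and they differed by 3.58 log2 units (standard error 0.62, limma adjusted p = 0.0249). Adra1a, the alpha-1A adrenergic receptor, was 0.766, 0.665 and 1.63 FPKM in sham LV and 4.19, 4.67 and 6.93 FPKM in VO LV. In the RV it was 8.52, 5.70 and 5.84 FPKM in the sham and 2.96, 2.76 and 1.07 FPKM in the VO libraries. The groups of each ventricle again did not overlap, and the difference of responses was 3.38 (standard error 0.46, adjusted p = 0.0246).

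Further large positive differences belonged to genes of several roles. Chrm2, the muscarinic receptor through which the vagus slows the heart, differed by 2.92, Ccnd2, a D-type cyclin, by 2.76, and Ogdh, a citrate cycle enzyme, by 2.76. Tbx20, a cardiac T-box factor, differed by 2.73, and Smyd1, a methyltransferase needed for myofibril assembly, by 2.68. Esrrb, an orphan nuclear receptor, differed by 2.64, Slc8a1, the sodium-calcium exchanger, by 2.63, and Ghrl, which encodes ghrelin, by 2.75. Adjusted p values of these 8 genes lay between 0.0249 (Smyd1, Ccnd2) and 0.0497 (Tbx20). The pseudogene AABR07050646.1 (difference 3.06), AABR07062799.2 (2.66) and Wnt9a, a secreted Wnt ligand (1.53), had the smallest adjusted p, 0.0246, as Adra1a did.

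Smaller differences with tight replicates were also called. Myadml2 was 10.7, 11.2 and 11.3 FPKM in sham LV, 18, 17.6 and 18.2 FPKM in VO LV, 19.1, 15.4 and 18.4 FPKM in sham RV and 14.5, 13.3 and 13.1 FPKM in VO RV. Its difference was 1.03 (standard error 0.13, adjusted p = 0.0246). Its groups overlapped in neither ventricle. The difference of Wdr13 was 0.73 and that of Klhdc8b 0.69, and the latter passed in neither ventricle alone.

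**Figure D3:**
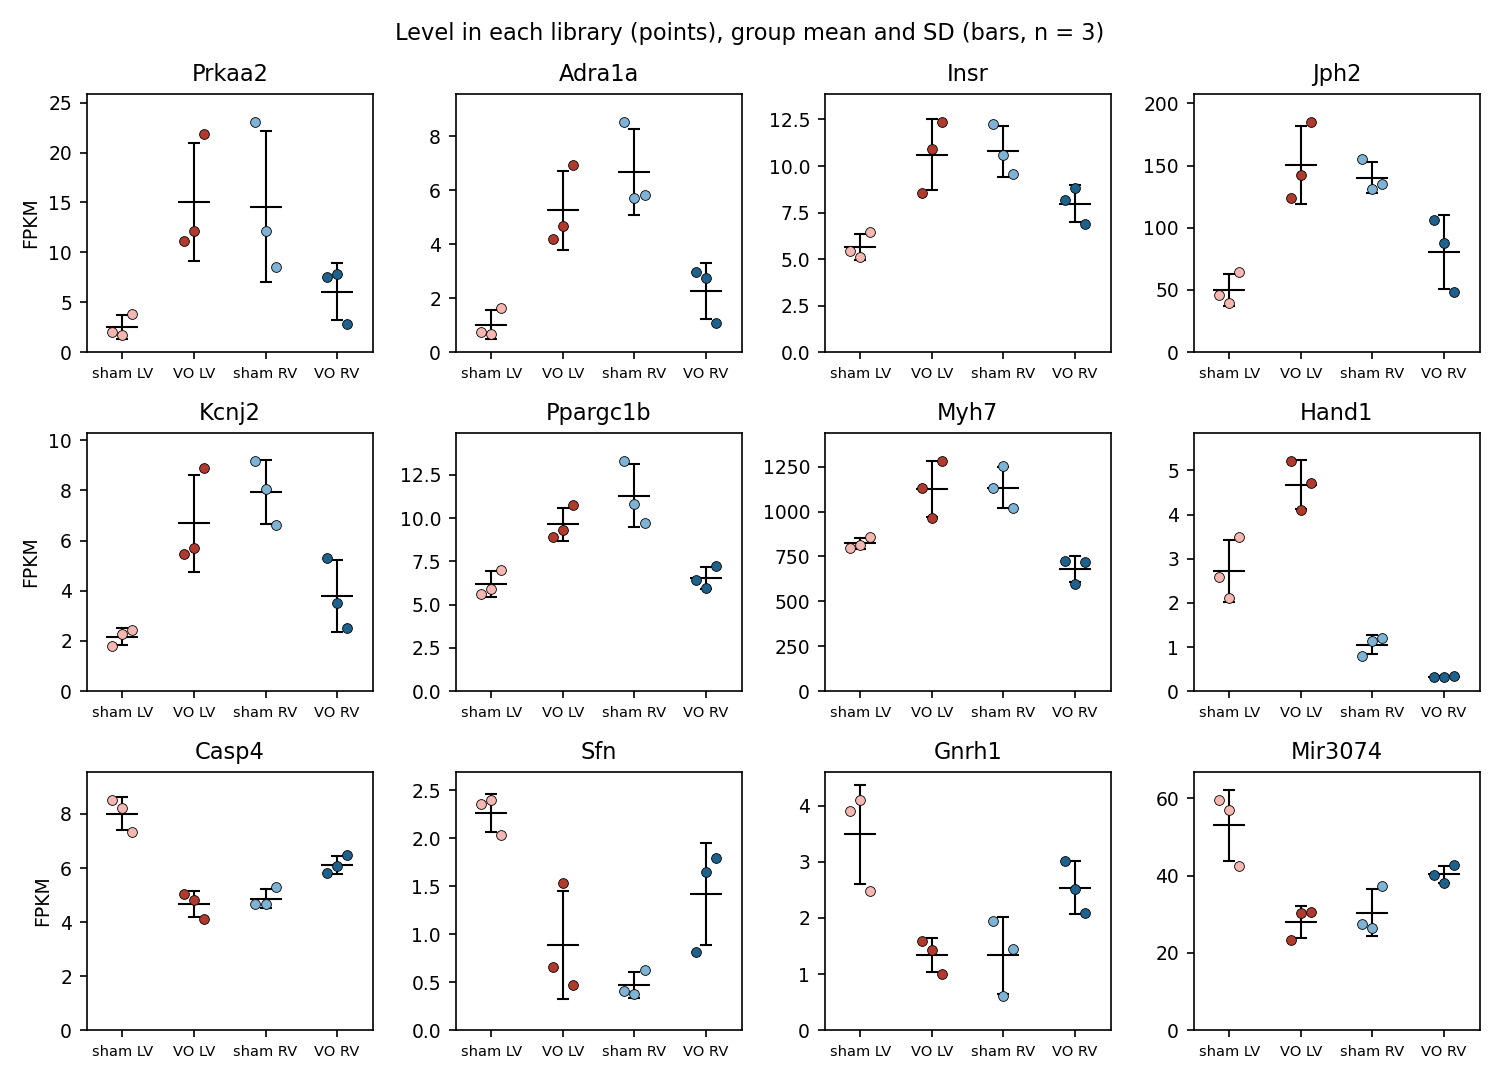
FPKM (y axes, from 0) of 12 genes are shown in each library as points, with the group mean and SD (n = 3) as bars, in the order sham LV, VO LV, sham RV and VO RV. Prkaa2, Adra1a, Insr, Jph2, Kcnj2, Ppargc1b and Myh7 were higher under VO in the LV and lower in the RV, Hand1 was higher in the LV throughout, and Casp4, Sfn, Gnrh1 and Mir3074 had the reverse order.

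In the gene lists that follow, the share of a list called with the higher response in the LV is to be read against 3.46% of all tested genes, and that with the higher response in the RV against 0.733%. Members and lists were chosen with earlier results of these data known. The LV share also varied with level and length: it was 5.45% for genes of 20 to 100 FPKM and 8.15% for genes of 8000 bases and over. The lists were not matched for either, so an excess over 3.46% is a description. Insulin acts on heart muscle through its receptor, the receptor substrates and the kinase Akt, and is opposed by phosphatases. Of 24 tested genes of this list, 4 had a higher response in the LV (Insr, Inppl1, Akt2 and Ptpn1; 16.7% of the list, beside 3.46% of all tested genes) and 0 in the RV, and the median difference of the list was 0.47, with 21 of 24 genes positive. Insr, the insulin receptor, was 5.42, 5.11 and 6.43 FPKM in sham LV, 8.55, 10.9 and 12.4 FPKM in VO LV, 12.3, 10.6 and 9.55 FPKM in sham RV and 8.20, 8.82 and 6.91 FPKM in VO RV. The sham LV libraries were the lowest of the 12 and the difference was 1.26 (standard error 0.21). Inppl1, a lipid phosphatase that opposes insulin signaling, differed by 1.02, the kinase Akt2 by 1.04 and Ptpn1, a phosphatase that switches the receptor off, by 0.75. Members that differ in the sign of their action thus had differences of the same sign. Irs2, which encodes insulin receptor substrate 2, was not called: its LV response was 1.81 and its RV response 0.56 (difference 1.24, adjusted p = 0.0897).

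Thyroid hormone acts through nuclear receptors that pair with retinoid X receptors. In this list 2 of 24 genes were called (8.33%, beside 3.46% of all tested genes), both with the higher response in the LV: Ncoa2, a coactivator (difference 1.42), and Rxra, retinoid X receptor alpha (0.99). The median difference of the list was 0.31. Thra, thyroid hormone receptor alpha, had a difference of 0.53 with an adjusted p of 0.0535. Among AMPK subunits, upstream kinases and the AMPK target acetyl-CoA carboxylase, 2 of 14 genes (14.3%) were called, Prkaa2 and Acaca (1.21), and the median was 0.11. This median was 0.03 with the gene-length trend removed and −0.01 without sham LV 1. In the mTOR list, which governs protein synthesis and cell size, Eif4ebp2 (1.52), Rptor (0.68) and Mtor (0.60) were called of 24 genes (12.5%, median 0.19).

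Muscle protein breakdown is run by FOXO factors and their ubiquitin ligases. Here 3 ligase genes had the higher response in the LV, Fbxo32 (2.25), Fbxo40 (1.78) and Fbxo21 (1.22), and Bnip3l, a mitophagy receptor, had the higher response in the RV (−0.51), of 21 genes tested (14.3% on the LV side, median 0.49). Fbxo32, which encodes atrogin-1, was 4.28, 4.31 and 6.63 FPKM in sham LV, 13.2, 11.8 and 16.6 FPKM in VO LV, 16.4, 10.6 and 9.63 FPKM in sham RV and 8.74, 8.21 and 3.41 FPKM in VO RV. The VO libraries were above the sham libraries in the LV and below them in the RV.

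Adrenergic receptors drive rate and force through adenylyl cyclase and protein kinase A. Of 27 genes tested, 6 had a higher response in the LV (22.2% of the list) and 1 in the RV, with a median of 0.57. Besides Adra1a these were Prkar2a (1.71) and Prkar1a, regulatory subunits of protein kinase A, Adcy5, a cardiac adenylyl cyclase (1.33), Adrb1, the main cardiac beta receptor (1.26), and the anchoring protein gene Akap6. Adrb1 was 8.26, 9.20 and 11.6 FPKM in sham LV, 17.1, 15.4 and 19.4 FPKM in VO LV, 15.7, 17.4 and 16 FPKM in sham RV and 14.3, 12 and 9.77 FPKM in VO RV.

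In the cycle of contraction, calcium leaves the sarcoplasmic reticulum through the ryanodine receptor Ryr2 and returns by the pump Atp2a2. Both genes, the junction protein gene Jph2 and the exchanger Slc8a1 had the higher response in the LV, 4 of 30 genes tested (13.3%), and none had it in the RV (median 0.23). Jph2, which ties the cell membrane to the reticulum, was 46.3, 39.5 and 64.2 FPKM in sham LV, 124, 142 and 185 FPKM in VO LV, 155, 131 and 135 FPKM in sham RV and 106, 87.9 and 48.3 FPKM in VO RV. The groups of each ventricle did not overlap, and the difference was 2.45 (standard error 0.38, adjusted p = 0.0249). Ryr2 differed by 1.61 (standard error 0.27), and its sham LV libraries of 21.2, 24.0 and 22.7 FPKM stood against 34.9, 43.5 and 52.3 FPKM in VO LV, with the reverse order in sham RV (55.8, 43.4 and 34.6 FPKM) and VO RV (29.9, 29.2 and 21.7 FPKM). Atp2a2, with over 400 FPKM in every library, differed by 1.23. Of 10 subunits of voltage-gated calcium channels, Cacnb2 alone was called (1.67).

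Sodium and potassium channels and the sodium pump set the resting potential and shape the action potential. This list had the highest median of the 33 pathway lists, 0.72, and 8 of its 34 genes (23.5%) were called, all with the higher response in the LV. The genes Kcnj2 (2.43) and Kcnj12 (2.07) encode inward rectifiers that hold the resting potential. Kcnj2 was 1.78, 2.28 and 2.45 FPKM in sham LV, 5.45, 5.71 and 8.90 FPKM in VO LV, 9.16, 8.06 and 6.61 FPKM in sham RV and 5.32, 3.52 and 2.50 FPKM in VO RV. The difference of the background channel gene Kcnk3 was 0.83. Kcnh2, which encodes the channel of the rapid repolarizing current, the pacemaker channel gene Hcn2 and the sodium pump gene Atp1b1 were also called.

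The sarcomere is held in register by scaffold proteins of the Z disc and M band. Of 30 such genes 9 had the higher response in the LV and 0 in the RV, with a median of 0.61. They were Synpo2l (2.61), Flnc (1.34), Alpk3 (1.33) and Nrap (0.86), and also Synpo2, Xirp1, Myom1, Myom2 and Pdlim5. Alpk3, an M band protein whose loss causes cardiomyopathy, was 16.9, 17.1 and 18.9 FPKM in sham LV and 28.9, 36.9 and 33.8 FPKM in VO LV, and 31.8, 29.3 and 29.2 FPKM in sham RV and 27.1, 20.2 and 19.4 FPKM in VO RV. Its difference was 1.33 (standard error 0.18, adjusted p = 0.0246).

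The list of contractile isoforms had a median of −0.12, with 9 of 22 genes positive. The 2 genes called were the adjacent myosin heavy chain genes. Myh7, the slow heavy chain of the fetal heart, was 796, 815 and 857 FPKM in sham LV, 1131, 966 and 1280 FPKM in VO LV, 1132, 1251 and 1018 FPKM in sham RV and 725, 598 and 720 FPKM in VO RV. Myh6, the fast heavy chain that replaces it after birth in rodents, was 1592, 1544 and 1706 FPKM in sham LV, 2311, 2041 and 2787 FPKM in VO LV, 2323, 2355 and 2165 FPKM in sham RV and 1916, 1762 and 1718 FPKM in VO RV. In both genes the VO libraries lay above the sham libraries in the LV and below them in the RV, without overlap within either ventricle, and the differences were 1.18 (standard error 0.18) and 0.89 (standard error 0.18). These paralogs share sequence, and reads could be divided between them.

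Cell junctions and the dystrophin complex link cardiomyocytes to each other and to the matrix. In this list 9 of 33 gene entries (27.3%) were called, all higher in the LV, and 29 of 33 were positive (median 0.41). Desmoplakin (Dsp) differed by 1.47 and desmoglein 2 (Dsg2) by 0.93, both desmosome proteins, Sgcd, a sarcoglycan, by 1.73 and Tln2, a talin, by 1.37. The other called genes were Cdh2, Ctnna1, Ctnna3, Dmd and Gja1, the last encoding the main gap junction protein of the ventricle.

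Among cardiac transcription factors 5 of 28 (17.9%) had the higher response in the LV (median 0.41). Hand1, a factor of the embryonic left ventricle, was 2.58, 2.10 and 3.48 FPKM in sham LV, 5.21, 4.10 and 4.71 FPKM in VO LV, 0.802, 1.13 and 1.21 FPKM in sham RV and 0.318, 0.316 and 0.345 FPKM in VO RV. It was higher in every LV library than in every RV library, and its difference of responses was 1.59 (standard error 0.26, adjusted p = 0.0249). Myocd (1.38) and Srf (0.93), which together activate muscle genes, Tbx20 and Gata5 (0.86) were the others. In the calcineurin and MEF2 list Mef2a (1.29), Mef2d (1.11) and Camta1 (1.23, 1 of 2 gene entries of that name) were called of 22 entries, and in the Hippo and Notch list the growth regulator Yap1 (1.44), its partner Tead1 (1.59) and Mob1b (1.80) of 33. The splicing factors Celf1 (1.44) and Rbm20, a regulator of titin splicing (0.84), were called of 35 genes (5.71%) whose median was −0.14. With shares below that of all tested genes (3.46%), Kdm6b (0.54) was called of 39 chromatin regulators (2.56%) and Ccnd2 of 40 cell cycle genes (2.5%), whose median was −0.02.

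The heart changes from glucose to fatty acids as its main fuel after birth, under the control of PGC-1, PPAR and ERR regulators. Of 20 regulators 6 had the higher response in the LV: Esrrb, Ppargc1b, Ppara, Lpin1, Ppargc1a and Ppard. Ppargc1b, a coactivator of mitochondrial genes, was 5.63, 5.90 and 7.02 FPKM in sham LV, 8.92, 9.29 and 10.7 FPKM in VO LV, 13.3, 10.8 and 9.72 FPKM in sham RV and 6.43, 5.95 and 7.23 FPKM in VO RV. Neither ventricle had overlapping groups, and the difference was 1.34 (standard error 0.19, adjusted p = 0.0246). Ppara, the receptor that switches on fatty acid oxidation, differed by 1.54 and the lipid phosphatase Lpin1 by 1.72.

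Enzymes of both fuels were among the called genes. Of 39 fatty acid genes 5 (12.8%) were called higher in the LV (median 0.33), among them Hadh (1.22), Hadhb (0.96), Acsl1 (0.94) and Cpt1b, the gate of fatty acid entry into mitochondria (0.69). Of 36 glucose and glycogen genes 5 (13.9%) were called higher in the LV (median 0.39), among them the glycogen phosphorylase Pygb (1.58), the glycogen synthase Gys1 (1.05) and Pfkm, muscle phosphofructokinase (0.72). In the citrate cycle list 4 genes, among them Ogdh, Cs and Sdha (0.90), had the higher response in the LV and Pck2, mitochondrial PEP carboxykinase, had it in the RV (−0.82), of 21 genes. Of 73 entries for nuclear-encoded subunits of the respiratory chain 1 was called (1.37%, beside 4.19% of all tested genes), Ndufs1 (1.14), with 26 of 73 positive and a median of −0.13. None of 11 mitochondrially encoded genes was called by limma, and none passed at the unadjusted p and fold (median −0.14). With the gene-length trend removed both medians were above 0, at 0.03 and 0.05. Of the mitochondrially encoded genes, Mt-nd6 had a difference of −0.47 and Mt-atp8 one of −0.31.

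Smaller numbers were called in other lists. The phosphodiesterase Pde4a (1.01) and the protease Furin, which processes natriuretic peptides (0.62), were called of 23 natriuretic peptide and cGMP genes (median 0.00), the chaperone genes Hspa9 (1.51) and Bag3 (0.62) of 37 heat shock and antioxidant genes (median 0.11), and Nr3c2, the mineralocorticoid receptor (2.23), of 12 endothelin and angiotensin genes (median −0.09). No gene was called by limma among 30 SIK, CREB and immediate early genes, 18 clock genes, 5 neuregulin and ErbB genes, 34 collagen and matrix genes or 32 TGF-beta and SMAD genes, although 2, 5, 2, 0 and 5 of them had the higher response in the LV at the unadjusted p and fold and 2, 0, 0, 2 and 0 in the RV. The medians of these lists were 0.00, 0.19, 0.45, −0.20 and −0.07. With 1 library left out, they ranged from −0.04 to 0.05, 0.13 to 0.24, 0.27 to 0.74, −0.31 to 0.07 and −0.15 to 0.22. The smallest unadjusted p values of these lists belonged to Creb1 (0.69) and Sik1 (0.69), Bhlhe41 (1.33) and Clock (0.39), Erbb4 and Erbb2 (1.12), Timp1 (−0.77) and Dcn (−0.48), and Bmpr1a (1.22) and Bmp7 (1.32). Sik1, a salt-inducible kinase, lay higher under VO in both ventricles: it was 5.05, 4.84 and 4.68 FPKM in sham LV and 13.0, 15.2 and 15.6 FPKM in VO LV, and 7.81, 6.90 and 5.33 FPKM in sham RV and 13.1, 14.4 and 8.83 FPKM in VO RV. Its difference had an adjusted p of 0.120. Across the 33 pathway lists, 24 medians were above 0 (in 10 of the 33 lists the sign of the median changed under at least 1 alternative), 26 lists held a gene with the higher response in the LV and 4 held one with the higher response in the RV.

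**Figure D4:**
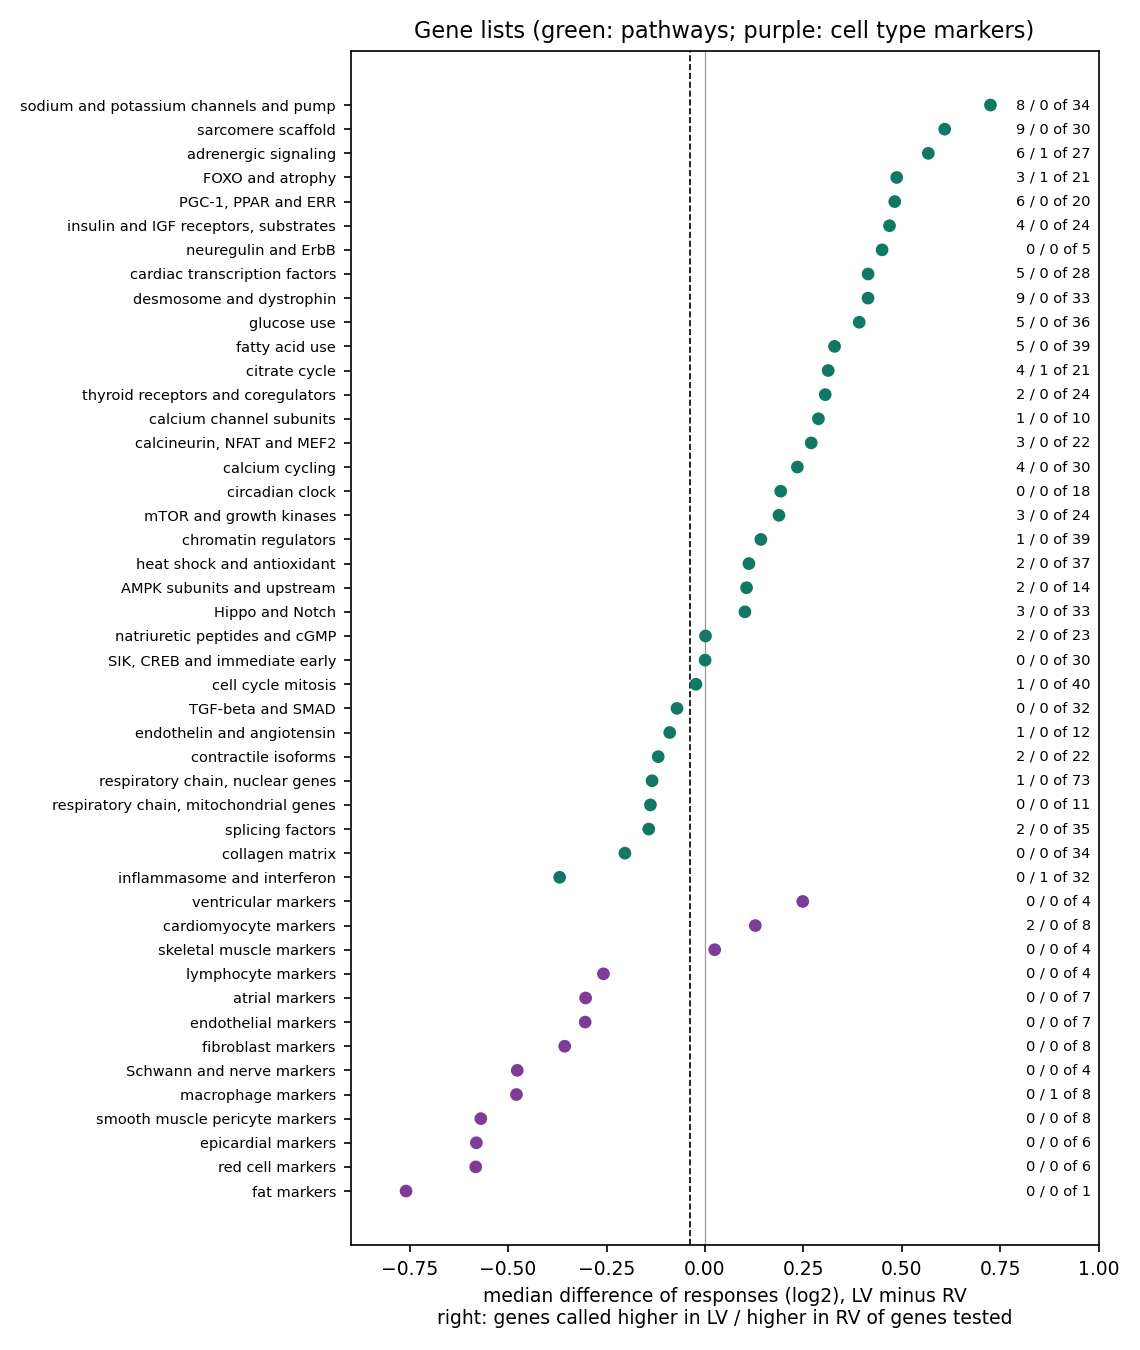
The median difference of responses (x axis, log2, LV minus RV) is shown for 33 pathway lists (green) and 13 cell type marker lists (purple), with the genes called higher in the LV, higher in the RV and tested at the right and the median of all genes (−0.04) as a dashed line. Ion channels (0.72), sarcomere scaffold (0.61) and adrenergic signaling (0.57) are at the top, and most non-muscle marker lists lie below the dashed line.

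The genes with the higher response in the RV were fewer and had a shorter median length. Sfn, which encodes the 14-3-3 sigma protein, was 2.35, 2.39 and 2.03 FPKM in sham LV, 0.662, 1.53 and 0.471 FPKM in VO LV, 0.405, 0.377 and 0.631 FPKM in sham RV and 0.809, 1.64 and 1.79 FPKM in VO RV, a difference of −2.00 (standard error 0.41, adjusted p = 0.0319). Gnrh1, the gonadotropin-releasing hormone gene, differed by −1.90, Ager, the receptor for advanced glycation end products, by −1.39, Mgst2, a microsomal glutathione transferase, by −1.23, Krt24, a keratin, by −1.22 and Mapk1ip1 by −1.21. Among the other named genes were Ncf4, a subunit of the phagocyte oxidase (−1.20), Irak2, a kinase of the interleukin-1 receptor (−1.15), Tifab (−1.10) and Casp4, an inflammatory caspase (−1.02). Casp4 was 8.51, 8.22 and 7.32 FPKM in sham LV, 5.06, 4.83 and 4.12 FPKM in VO LV, 4.65, 4.67 and 5.28 FPKM in sham RV and 5.82, 6.06 and 6.47 FPKM in VO RV, without overlap in either ventricle (standard error 0.15, adjusted p = 0.0249). It was the single gene called of 32 in the inflammasome and interferon list, whose median was −0.37 with 8 of 32 positive. Ing1 (−0.58), Clec2g (−0.73), Cdc42ep5 (−0.84) and Rpa3 (−0.69) had differences under 1 on the log2 scale. Rps29 (−0.86) and Rpl5l1 (−1.12), of the ribosomal protein family, can share reads with near-identical copies.

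Markers of most other cells had negative medians. The median difference was −0.36 for fibroblast markers (1 of 8 positive), −0.30 for endothelial markers (0 of 7), −0.57 for smooth muscle and pericyte markers (2 of 8), −0.48 for macrophage markers (0 of 8), −0.26 for lymphocyte markers (0 of 4), −0.58 for epicardial markers (0 of 6), −0.48 for Schwann and nerve markers (0 of 4), −0.58 for red cell markers (0 of 6) and −0.30 for atrial markers (1 of 7). The atrial median rested on single libraries: it ranged from −1.36 to 1.33 when 1 library was left out, the latter without VO RV 2. It was 0.20 without the pair of libraries high in Sln and Bmp10. By the sum of the 7 markers VO RV 2 was highest (4586 FPKM), while sham RV 1 (1089 FPKM) lay below VO LV 3 (1749 FPKM). With 1 library left out, the fibroblast median ranged from −0.55 to −0.12 and the epicardial from −0.86 to −0.22. The red cell median ranged from −0.88 to −0.19 and that of Schwann and nerve markers from −0.84 to −0.21. Fibroblast sums were highest in sham RV 1 (3640 FPKM) and VO RV 2 (4935 FPKM), against at most 3045 FPKM elsewhere. With all libraries the medians were 0.13 for cardiomyocyte markers (4 of 8 positive), 0.25 for ventricular markers (3 of 4), 0.02 for skeletal muscle markers (2 of 4) and −0.76 for the single fat marker tested. Under the alternatives the cardiomyocyte median ranged from −0.04 to 0.34, the ventricular from −0.04 to 0.43 and the skeletal muscle median from −0.13 to 0.24, so none of these kept its sign. Of all these genes 3 were called, Myh6 and Ryr2 with the higher response in the LV and C1qb, a complement gene of macrophages, in the RV. The summed FPKM of the endothelial markers was 511 to 557 in sham LV, 397 to 446 in VO LV, 371 to 394 in sham RV and 369 to 469 in VO RV, and that of the macrophage markers was 50.7 to 60.0, 48.4 to 53.4, 44.5 to 54.5 and 52.7 to 84.5. In bulk tissue, fewer cells of a type and less RNA per cell cannot be told apart, and the part of these shifts in the called genes was not tested.

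Small noncoding genes had negative median differences. Of 216 small nucleolar RNA genes 8 had the higher response in the RV and 1 in the LV, with a median of −0.68, and of 183 microRNA genes 2 had it in the RV and 1 in the LV, with a median of −0.44. The shares on the RV side were 3.70% and 1.09%, beside 0.733% of all tested genes, so that the microRNA share was near the background. The study's libraries were made from poly(A)-selected RNA, and the origin of reads on such small RNA genes was not tested. SNORD47, which guides a methylation of ribosomal RNA, was 61.7, 71.2 and 59.2 FPKM in sham LV, 30.1, 36.3 and 24.8 FPKM in VO LV, 30.3, 42.4 and 37.1 FPKM in sham RV and 58.5, 47.9 and 63.2 FPKM in VO RV, a difference of −1.70 (standard error 0.23, adjusted p = 0.0246). A U6 gene of 109 bases was listed at 0 throughout sham RV and at 0.512 to 1.23 FPKM in VO RV, and it was 1.79 to 2.83 FPKM in sham LV and 0.553 to 1.13 FPKM in VO LV. A U2 gene of 85 bases went the other way (1.88). U2 and U6 have many near-identical copies, so both are uncertain.

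Mir3074 was 59.5, 56.9 and 42.6 FPKM in sham LV, 23.3, 30.4 and 30.5 FPKM in VO LV, 27.4, 26.5 and 37.4 FPKM in sham RV and 40.2, 38.1 and 42.6 FPKM in VO RV. Its difference was −1.32 (standard error 0.23, adjusted p = 0.0249), and the groups of each ventricle did not overlap. With the gene-length trend of each library removed, the difference was −0.87 and the gene was no longer called (limma adjusted p = 0.066). The counts concern the 117-base gene, not the mature strand. That gene is listed on the minus strand in the deposited values, unlike the mature sequence printed here. The build and strand setting behind the counts are not stated, so the strand of its reads is not known. The mature strand is shown because the seed decides which messages it can pair with. It is taken from RefSeq (GRCr8, chr17:1818712-1818733, plus strand), with the seed, bases 2 to 8, in capitals, and no other of the 724 mature rat sequences of that table has this seed.
rno-miR-3074: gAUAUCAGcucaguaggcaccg
The other called microRNA genes were Mir3567 and AABR07053152.1. Mir3567 (−1.91) lies within Egfl7 on the opposite strand, and as the strand setting of the counting is not stated, its reads cannot be told apart from those of Egfl7.

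Promoters of the called genes were searched for the nuclear receptor hexamer AGGTCA on both strands, since Esrrb, Ppara, Rxra and Thra encode receptors that bind such sites. Windows from 250 bases before to 50 bases after the gene start (RefSeq, GRCr8) were matched by symbol for 345 of the 466 protein-coding genes whose response was higher in the LV and for 52 of the 84 with the higher response in the RV. The hexamer was in 39 (11.3%) and 5 (9.62%) of these, in 11.5% of the 9231 windows of tested genes and in 15.7% of all 27457 windows. The longer TCAAGGTCA, which contains it, was in 1 of the 345 and in 0.227% of the windows of tested genes. Of 3 further motifs searched, the TEAD site CATTCCA was in 4.06% of the windows on the LV side, 3.85% on the RV side and 2.84% of those of tested genes, the MEF2 site CTATTTATA in 0.29%, 0% and 0.292%, and the E box CACGTG in 8.12%, 1.92% (1 of 52) and 9.35%. Over all 27457 windows these were in 4.12%, 0.401% and 6.65%. The 250 bases before the start of 3 genes described above are shown as examples of where the hexamer, in capitals, lies. They are those of the phosphatases of the insulin list, Inppl1 (chr1:165609504-165609753, minus strand) and Ptpn1 (chr3:177057483-177057732, plus strand), and of the calcium channel Ryr2 (chr17:63081277-63081526, plus strand).
Inppl1: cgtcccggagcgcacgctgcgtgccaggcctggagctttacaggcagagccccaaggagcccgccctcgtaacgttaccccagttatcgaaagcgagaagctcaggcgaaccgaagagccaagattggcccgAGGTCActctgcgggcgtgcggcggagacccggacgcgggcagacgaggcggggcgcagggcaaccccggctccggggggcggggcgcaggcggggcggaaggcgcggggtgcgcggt
Ptpn1: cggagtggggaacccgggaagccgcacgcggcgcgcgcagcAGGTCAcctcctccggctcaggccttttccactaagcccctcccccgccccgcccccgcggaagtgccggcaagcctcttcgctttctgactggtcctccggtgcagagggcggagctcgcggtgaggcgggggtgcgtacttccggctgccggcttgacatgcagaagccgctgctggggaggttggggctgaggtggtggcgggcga
Ryr2: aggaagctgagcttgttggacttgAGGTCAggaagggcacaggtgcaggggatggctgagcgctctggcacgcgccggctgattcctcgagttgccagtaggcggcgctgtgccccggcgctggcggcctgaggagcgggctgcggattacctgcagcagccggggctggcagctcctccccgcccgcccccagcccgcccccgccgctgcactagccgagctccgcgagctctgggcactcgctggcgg
In these windows the site begins 118, 209 and 226 bases before the start. A match of letters is not a measure of binding.

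The direction of the difference followed gene length. From genes under 300 bases to genes of 8000 bases and over, the median difference was −0.38, −0.21, −0.10, 0.01, 0.08 and 0.14 in 6 classes bounded at 300, 1000, 2000, 4000 and 8000 bases. The share of genes called with the higher response in the LV was 0.552% in the shortest and 8.15% in the longest class, and the share with the higher response in the RV was 1.93% and 0%. The LV response had medians from −0.24 in the shortest class to 0.07 in the longest, and the RV response from 0.10 to −0.11. The RV libraries of a group were not alike in this. In the longest class the median deviation from the gene mean was 0.18, 0.07 and −0.04 in sham RV. It was −0.12, 0.08 and −0.07 in VO RV. In the LV it was −0.07, −0.07 and −0.05 in sham and −0.01, 0.04 and 0.06 in VO. Protein-coding genes alone gave medians of the difference of responses from −0.30 to 0.15. Called genes whose response was higher in the LV had a median length of 2886 bases, those with the higher response in the RV 1238.5 bases and all tested genes 2165.5 bases. After each library's trend of log2 value on gene length was removed, 393 genes were called, 348 with the higher response in the LV and 45 in the RV, and 329 and 37 of these were among the 481 and 102. Prkaa2 then differed by 3.53, Insr by 1.09, Ryr2 by 1.36, Casp4 by −0.93 and SNORD47 by −1.18. Of the 110 called genes that were named by a rule, 26 were no longer called, 15 on the LV side and 11 on the RV side, with adjusted p values from 0.0515 to 0.108 and the sign of all 26 kept. For several of them the difference itself hardly moved, as for Tbx20 (2.70), Tead1 (1.61), Rxra (0.99), Ptpn1 (0.79), Ager (−1.38), Krt24 (−1.18), Mapk1ip1 (−1.15) and Ncf4 (−1.14). It was smaller for Mtor (0.41), Rptor (0.51), Rps29 (−0.58), Rpa3 (−0.49), Cdc42ep5 (−0.63) and Mir3074 (−0.87). The genes called on the LV side then numbered 1 of the glucose and glycogen list (5 without this step), 5 of the junction list (9), 5 of the channel list (8), 3 of the cardiac transcription factors (5), 3 of the fatty acid list (5) and 1 each of the mTOR (3), thyroid (2), splicing (2) and natriuretic peptide (2) lists. They numbered 0 of the chromatin regulators (1), 2 of the Hippo and Notch list (3) and 2 of the calcineurin and MEF2 list (3). The sarcomere scaffold list had 7 (9), the PGC-1, PPAR and ERR list 5 (6), and the insulin and citrate cycle lists 3 each (4). The other pathway lists kept their number on the LV side. The median of the glucose and glycogen list was 0.38, that of the thyroid list 0.18, that of the chromatin regulators 0.001 and that of the Hippo and Notch list −0.03.

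**Figure D5:**
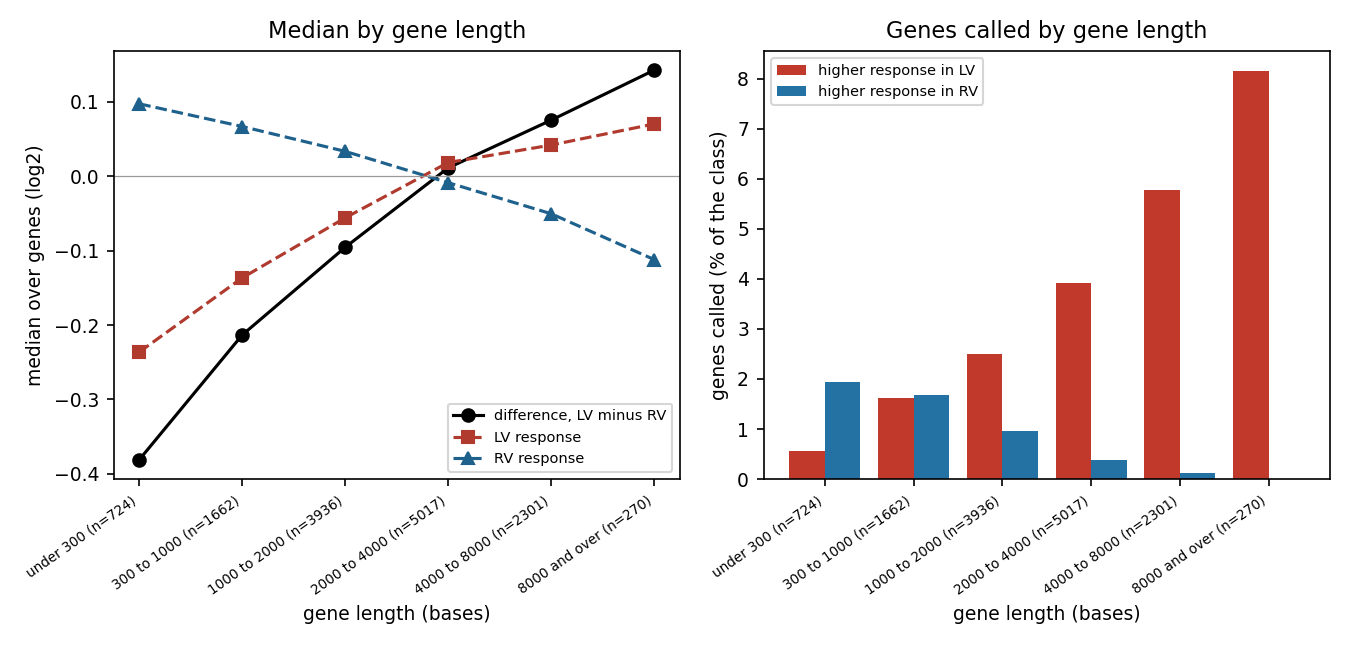
The left panel shows the median difference of responses and the median response of each ventricle (y axis, log2) for 6 classes of gene length (x axis, bases), and the right panel the percent of each class called with the higher response in the LV or RV. The LV line rises and the RV line falls with length, and calls on the LV side reach 8.15% in the longest class while those on the RV side reach 0.

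Level also mattered for the share of genes called. It was 0.402% for genes of 0.5 to 1 FPKM, 2.40% for 1 to 5 FPKM, 4.93% for 5 to 20 FPKM, 6.59% for 20 to 100 FPKM and 6.19% for 100 FPKM and over. In the top class the median difference was −0.11 and in the class from 20 to 100 FPKM −0.01. For each named gene, VO and sham labels were also exchanged within each ventricle in an exact permutation test, two-sided (400 relabellings, smallest p 0.005). Of the 110 called genes that were named by a rule, 76 reached this smallest p, among them Prkaa2, Adra1a, Insr, Jph2, Ryr2, Kcnj2, Myh7, Hand1, Casp4 and Mir3074. All 110 had p values under 0.05 in this test, but the genes had been called from the same values and contrast, so these p values are a description and add no support. When any 1 library was left out, the difference of Prkaa2 stayed between 3.13 and 3.88, that of Adra1a between 3.02 and 3.65, that of Insr between 1.15 and 1.40 and that of Casp4 between −1.08 and −0.94. Their largest adjusted p values were 0.0826, 0.0722, 0.0826 and 0.0722, each without VO LV 3.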

How the data were processed

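Poly(A)-selected RNA of the 12 libraries was aligned by the authors with HISAT2 2.0.5 and counted with featureCounts 1.5.0-p3. The submitters' processing notes also name StringTie 1.3.3b, DESeq2 1.20.0 and GATK 3.7. The genome build and strand setting are not given in the sources used here. The deposited values are FPKM made by the authors from counts per gene, and they corresponded to whole reads within 0.02 for values under 200 reads. Genes with a mean of at least 0.5 FPKM were tested on log2(FPKM + 0.5) with limma 3.58.1 (R 4.3.3) in a single model of 4 groups with an intensity trend, so fold changes of low genes are understated. Each library was first rescaled by its size factor. Benjamini-Hochberg adjustment covered all tested genes, and the calculation was tested on simulated data. Genes were named by size of difference, by adjusted p, by list, by gene type and by kind of response. Members and lists were chosen with earlier results of these data known. Of 1057 list symbols 1020 matched, 23 through older symbols. Normalization, pseudocount, filter, weights, recovered reads, replicate block, gene length and left-out libraries were varied. Covariates for atrial and Y-linked genes and the removal of the libraries high in atrial markers were added after seeing the data. Python 3.11.15 was used for summaries and plots. Some genes are not reported here.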

Additional observations from a re-analysis of the deposited data

Results flagged for a closer look

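Among the 124 genes named by a rule, 15 had a difference of responses above 2 on the log2 scale in either direction together with VO and sham libraries that did not overlap and lay in opposite order in the ventricles. The difference itself was tested as the interaction in limma, and all 15 had an adjusted p under 0.05. This adds no support, since 110 of the 124 named genes were called by this contrast and the 15 were picked by its size. Without VO LV 3 none of them was called. With the higher response in the LV these were Prkaa2 (3.58), Adra1a (3.38), the pseudogene AABR07050646.1 (3.06), Ccnd2 (2.76), Ogdh (2.76), Smyd1 (2.68), AABR07062799.2 (2.66), Synpo2l (2.61), Jph2 (2.45), Kcnj2 (2.43), Fbxo32 (2.25), Nr3c2 (2.23) and Kcnj12 (2.07). With the higher response in the RV they were Sfn (−2.00) and a U6 gene of 109 bases (−2.23). The U6 gene was listed at 0 in all 3 sham RV libraries, so its value depends on the pseudocount. Slc25a13, named after its values were seen, met the same criteria (2.42).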

How the results depend on the processing

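Against 583 called genes (481 higher in the LV, 102 in the RV), limma called 1599 (1090 and 509) at an adjusted p under 0.1, 311 (278 and 33) at a fold over 2, 21 (19 and 2) when all 21603 genes above 0 were tested and 1047 (760 and 287) with array weights. The count on the RV side was 43 with voom on recovered reads and 45 with the gene-length trend removed. Chosen after seeing the data, a covariate for atrial markers gave 1195 (859 and 336), one for Y-linked genes 176 (162 and 14), and leaving out the libraries high in atrial markers 2 (0 and 2). Leaving out 1 library at a time gave 0 to 1003 called genes, 0 to 756 in the LV and 0 to 247 in the RV, with 2302 to 3820 at the unadjusted p and fold. It was 4 without sham RV 2 (Myadml2, AABR07062799.2, SNORD47 and SNORD33), 240 without VO LV 1 and 909 without VO RV 2. The cause was not tested.

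With the replicate number as a block 1 gene was called (0 and 1), SNORD19B, and 2962 passed at the unadjusted p and fold. A block by number within each treatment, as if same-numbered libraries shared an animal, gave 0 (0 and 0) and 2672. Residuals of same-numbered LV and RV libraries correlated at 0.04, 0.04 and 0.12 in sham and 0.05, −0.05 and −0.22 in VO, so not every pair was above 0.1 and the block was not used in the reported values. Whether same-numbered libraries share a rat is not stated. The Y-linked level (high or near 0) was alike within each number in sham. It differed between VO LV 3 (summed FPKM 0.296) and VO RV 3 (56.1), so as labelled these cannot be ventricles of the same animals. The block by number within each treatment nevertheless paired them. All 583 genes kept their sign and an unadjusted p under 0.05 in each alternative that tested them, which their selection by the same contrast on these libraries favours. Of single genes, Mt-atp8, not called, turned from −0.31 to 0.0444 with the length trend removed, and it ranged from −0.64 to 0.0116 when 1 library was left out, the latter without sham LV 1. With 3 libraries a group and adjusted p values just under the threshold, which genes are called is uncertain.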

Other observations

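Gene families outside the pathway lists were also summarised, chosen after their values were seen. Cytosolic ribosomal protein genes, which build the translation machinery, had a median difference of −0.44 over 106 gene entries, with 19.8% positive, and 4 were called, all with the higher response in the RV (3.77%, beside 0.733% of all tested genes). Rpl37 was 195, 218 and 230 FPKM in sham LV, 170, 156 and 157 FPKM in VO LV, 134, 132 and 141 FPKM in sham RV and 199, 160 and 221 FPKM in VO RV, without overlap in either ventricle (difference −0.91, limma adjusted p = 0.0249). Another gene entry named Rpl37, with a mean of 0.715 FPKM, was not called (difference −0.17, limma adjusted p = 0.912). Such short genes have many pseudogene copies, and the values are uncertain. Among all tested genes of 300 to 1000 bases the median difference was −0.21, and 1.68% were called on the RV side. With the gene-length trend removed, Rps29 (limma adjusted p = 0.0534) and Rpl5l1 (0.0561) were no longer called. Mitochondrial ribosomal proteins had a median of −0.03 over 73 genes with 1 called, Mrpl13 (−0.51), and proteasome subunits a median of −0.11 over 45 genes with 0 called by limma.

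All 3 ankyrin genes tested, which anchor channels and transporters to the membrane skeleton, had the higher response in the LV: Ank2 (1.68), Ank1 (0.95) and Ank3 (0.92). The share of all tested genes was 3.46%. At 12402, 5124 and 10472 bases these are long genes. On the LV side 5.78% of genes of 4000 to 8000 bases and 8.15% of longer ones were called. Of 13 genes of A-kinase anchoring proteins, which place protein kinase A near its substrates, 4 (30.8%) had the higher response in the LV: Akap6 (2.07), Akap2 (1.49), Akap1 (0.99) and Akap7 (0.98). Of 213 solute carrier genes 12 did (5.63%, beside 3.46% of all tested genes) and 0 had the higher response in the RV, with a median of 0.01. The mitochondrial aspartate-glutamate carrier Slc25a13 was 8.15, 6.24 and 12.1 FPKM in sham LV, 24.0, 23.1 and 38.7 FPKM in VO LV, 27.5, 24.3 and 21.6 FPKM in sham RV and 17.3, 19.1 and 8.30 FPKM in VO RV (difference 2.42). Slc16a1, a lactate transporter, differed by 1.54.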
